A study of Homo sapiens with 8 samples.

Results

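The ZNF genes are human genes whose symbol is ZNF followed by a number, most of which encode proteins with repeated C2H2 zinc fingers. They were taken by symbol from a table of Ago2 binding sites on RNA, leaving out ZNF367 and ZNF711, and the peaks in coding sequence, where the finger repeats lie, were compared with those in 3' UTRs. The rule gave 449 of 22506 listed peaks and 138 of 6326 genes. ZNF symbols that end in a letter, 13 genes with 56 peaks, were not members. Of the 449 peaks, 151 lay in coding sequence and 258 in 3' UTRs, while 37 lay in 5' UTRs and 3 in a noncoding transcript.

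Ago2, the Argonaute that loads microRNAs and binds their targets, was pulled down with the RNA crosslinked to it (CLIP) from 293S cells, a subline of HEK293, which came from human embryonic kidney. The cells had received emetine, a plant alkaloid that halts ribosomes during elongation, at 20 µg/mL for 60 minutes, or were untreated controls. Each treatment was 1 culture, divided into 3 aliquots for CLIP with 3 different Ago2 antibodies and 1 aliquot for RNA-seq. The 3 CLIP libraries of a treatment are therefore aliquots, not cultures, and the p-values below measure only the spread between aliquots and antibodies. Libraries are numbered within a treatment, and which antibody belongs to which was not assigned. Same-numbered libraries were alike in the noncoding share of the reads of other genes, 46.2, 6.54 and 14.1% with emetine against 43.6, 6.58 and 13.7% in the control, but no label pairs them, and the comparisons below are unpaired unless stated.

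C2H2 zinc finger proteins form a large family of DNA-binding factors in which a short fold, held by a pair of cysteines and a pair of histidines around a zinc ion, is repeated along the protein. Many carry a KRAB box, which recruits the corepressor TRIM28 to silence chromatin and transposable elements, and many of these genes lie in clusters on chromosome 19. Because the finger and its linker are so alike from repeat to repeat, a microRNA site that falls on them recurs within the same coding sequence, and miR-181 is known for such repeated coding sites in C2H2 genes.

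The seed is bases 2 to 8 of a microRNA, shown in capitals in these 4 mature sequences from RefSeq (GRCh38.p14), each with a different seed. miR-181a-5p is shown for the finger repeats, and the other three for comparison.
hsa-miR-181a-5p: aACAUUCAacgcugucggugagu
hsa-miR-17-5p: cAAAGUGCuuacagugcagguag
hsa-let-7a-5p: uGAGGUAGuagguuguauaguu
hsa-miR-92a-3p: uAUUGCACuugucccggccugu

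The letters that pair with the miR-181 seed, TGAATGT, were searched on the transcript strand of GENCODE 29 coding sequences, together with GCACTTT for miR-17, CTACCTC for let-7 and GTGCAAT for miR-92. Of the 138 ZNF genes, 137 matched a coding sequence, 4 of them by an older symbol. Stretches of 30 bases with TGAATGT in capitals are shown from genes that the results return to: ZNF12, which had the most matches of any ZNF gene, ZNF180 and ZNF484, which had coding peaks and many matches, and ZNF770, which had the most coding reads and a single match. Of the other genes with leading coding sums, ZNF238, ZNF703, ZNF498 and ZNF644 had 0 matches, ZNF652 had 1, ZNF317 had 2 and ZNF292 had 3. Numbers after each name are the first and last base of the stretch, counted from the start codon.
ZNF12, 964 to 993: gagaagccctaTGAATGTaaTGAATGTggg
ZNF12, 1048 to 1077: gagaagccctaTGAATGTagttattgtgga
ZNF180, 1048 to 1077: gagaaacctttTGAATGTaatcagtgtggg
ZNF484, 1141 to 1170: gggaaacacttTGAATGTacTGAATGTgga
ZNF770, 154 to 183: caaaagccattTGAATGTgatgtgtgtcat

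In each stretch the first run of capitals ends in the codon TGT of the first cysteine of a finger. Across the ZNF coding sequences there were 378 matches to TGAATGT, and 319 of them (84.4%) ended on a cysteine codon of a C2H2 finger, 167 on the first cysteine and 152 on the second. The finger pattern searched was a cysteine, 2 to 4 residues, a cysteine, 12 residues, a histidine, 3 to 5 residues and a histidine, and it was found 1379 times. ZNF genes had a median of 10 fingers and at most 33, and 61 of the 137 matched a KRAB A box pattern, a strict match that can miss boxes which depart from it.

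The matches were dense in ZNF coding sequences whether or not Ago2 peaks were listed there. The 74 ZNF genes with coding peaks had 1.44 miR-181 matches per kb of coding sequence, and 60.8% of them had at least 1 match. The 63 without coding peaks had 1.21 per kb, with a match in 55.6% of genes. The 3465 other genes with coding peaks had 0.0984 per kb, with a match in 16.2% of genes. The 38 genes named ZFP, ZBTB, ZSCAN or ZKSCAN lay between, at 0.590 per kb, with a match in 31.6% of genes. In 3' UTRs the density was 0.230 per kb for ZNF genes with coding peaks and 0.165 per kb for other genes with coding peaks. The transcript taken for a gene can lack the 3' UTR that carries its peaks. For ZNF805, which has peaks in both regions, it had 0 bases of 3' UTR, so these 3' UTR densities are incomplete. The other seeds showed no such excess in ZNF coding sequence: miR-17 matches came to 0.0538 per kb in ZNF genes with coding peaks and 0.0666 per kb in other genes with coding peaks. For let-7 the densities were 0.0718 and 0.0936 per kb, and for miR-92 they were 0.0538 and 0.0435 per kb, in the same order of groups. The density was 0.0580 per kb in the 14 ZNF genes with 0 to 2 fingers, 0.933 per kb in the 50 with 3 to 9 and 1.84 per kb in the 73 with 10 or more. A match is a description of letters, microRNA levels were not measured here, and the peaks could not be laid over the matches because peaks are in hg19 and the transcripts in GRCh38.

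**Figure D1:**
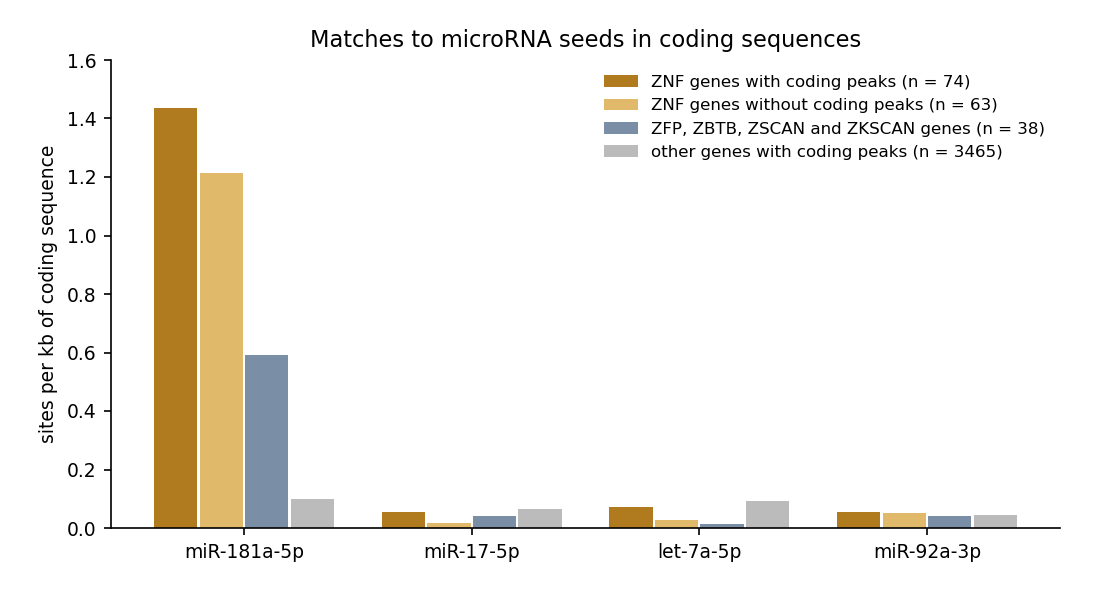
Matches to 4 microRNA seeds per kb of coding sequence (y axis) for ZNF genes with and without coding peaks, for genes named ZFP, ZBTB, ZSCAN or ZKSCAN, and for other genes with coding peaks; each bar is all matches of a group over its summed coding length. The miR-181 bars of the ZNF genes stand at 1.44 and 1.21. That of the ZFP, ZBTB, ZSCAN and ZKSCAN genes stands at 0.590, and that of other genes with coding peaks at 0.0984. The other 3 seeds lie under 0.1 in every group.

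Reads per library were recovered as whole numbers from the deposited logarithms. Over all genes the libraries held 41092, 105086 and 97336 reads in listed peaks for emetine libraries 1 to 3, against 39851, 117797 and 103948 for control libraries 1 to 3, so library 1 of each treatment was the shallowest. Summed over the genes with recovered peaks alone, the RNA libraries held 3768794 reads with emetine against 1561486 in the control. Of 7 marker genes of HEK293 and kidney epithelium, VIM and NEFL had peaks and KRT8, KRT18, PAX2, NEFM and INA had none, and markers of blood, liver, fibroblasts, endothelium and muscle had none. The table lists only RNAs with peaks, so a marker without one is not shown to be unexpressed.

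ZNF genes took about the same split of peaks between regions as other genes. Coding sequence held 33.6% of the ZNF peaks and 33.2% of the peaks of other genes, and 3' UTRs held 57.5% and 57.6%. Coding peaks were found in 74 ZNF genes and 3' UTR peaks in 98, and 44 genes had both. A further 30 had coding but no 3' UTR peaks and 54 had the reverse. The median gene had 2 peaks in either set, and 67 ZNF genes (48.6%) had a single peak, against 39.7% of other genes. The most peaks fell on ZNF238 (29), now named ZBTB18, a repressor needed in neuronal differentiation. ZNF652, a repressor that works with CBFA2T3, had 22, and ZNF703, a corepressor gene amplified in luminal breast cancer, had 20. ZNF703 had 16 coding peaks and ZNF238 had 13, ahead of ZNF652 with 7, ZNF292 with 6 and ZNF644 with 5. ZNF264 and ZNF805 had 18 peaks each. Chromosome 19 held 53 of the genes and 135 of the peaks.

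Most ZNF peaks were thin. All ZNF peaks together had 8606 reads, the median peak had 15 over the 6 libraries, 327 peaks had fewer than 20, and 10 had 50 or more. Reads fell in at most 2 libraries for 255 peaks (56.8%), against 54.6% of all peaks, and 8 peaks had a read in every library. Neighbouring peaks overlapped in 49 pairs and 50 peaks had the same 6 read numbers as a second peak of their transcript and region, so sums per gene count some reads more than once. ZNF238, ZNF703 and ZNF652 together held 20.0% of the ZNF reads.

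By region, the ZNF coding peaks had 159, 781 and 467 reads in emetine libraries 1 to 3 against 140, 843 and 432 in control libraries 1 to 3. The ZNF 3' UTR peaks had 191, 1126 and 862 reads with emetine against 227, 1580 and 973 in the control. The 5' UTR peaks had 131, 174 and 86 reads with emetine against 124, 105 and 108 in the control. As a share of all reads in listed peaks, ZNF genes took 1.18, 2.01 and 1.46% with emetine, against 1.24, 2.17 and 1.47% in the control. The groups overlapped, with means of 1.55 ± 0.424% with emetine and 1.63 ± 0.481% in the control (SD, n = 3 each, two-sided exact permutation p = 0.7, smallest possible 0.1).

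The coding share of coding plus 3' UTR reads overlapped between the treatments when libraries were not paired, in ZNF genes and in other genes, with both means higher with emetine. For ZNF genes it was 45.4, 41.0 and 35.1% with emetine, against 38.1, 34.8 and 30.7% in the control, with means of 40.5 ± 5.16% and 34.6 ± 3.71% (SD, n = 3 each). The difference of 5.95 percentage points had a two-sided exact permutation p of 0.2. For all other genes the share was 36.0, 37.8 and 34.7% with emetine, against 35.4, 29.7 and 28.98% in the control, a difference of 4.79 points (exact permutation p = 0.2). With same-numbered libraries taken as pairs, the emetine library was higher in 3 of 3 pairs, by 7.28, 6.16 and 4.39 points for ZNF genes and by 0.601, 8.08 and 5.68 points for other genes. Each of these paired comparisons had a two-sided exact sign-flip permutation p of 0.25, the smallest that 3 pairs allow. Without ZNF770 the ZNF difference was 3.37 points (exact permutation p = 0.5), and it lay between 5.27 and 6.88 points when each of the other 5 leading genes by reads (ZNF238, ZNF703, ZNF652, ZNF264 and ZNF805) was left out in turn.

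Within a library, the coding share of ZNF genes exceeded that of other genes by 9.41, 3.15 and 0.484 points with emetine and by 2.73, 5.06 and 1.77 points in the control. All 6 libraries lay above 0, with a mean of 3.77 points and a two-sided exact sign-flip permutation p of 0.03125, the smallest that 6 libraries allow. That excess rested on ZNF770, which held 11.8% of the ZNF coding reads. Without it the mean was 0.970 points, 4 of 6 libraries lay above 0 and the exact permutation p was 0.469. Counted as a mean over genes rather than over reads, the difference was -0.802 points (exact permutation p = 0.625), and with lettered ZNF symbols included it was -0.926 points (exact permutation p = 0.469). The genes named ZFP, ZBTB, ZSCAN or ZKSCAN had lower coding shares, 21.1, 24.8 and 24.1% with emetine, against 27.5, 21.9 and 19.5% in the control. Unlike the ZNF set, this set kept symbols with letters after the number, such as ZBTB7A and ZFP36L2. Over all regions ZBTB7A held 379 of the set's 1511 reads with emetine and 416 of its 1691 in the control. The ZNF set in turn held genes since renamed ZBTB or ZSCAN, such as ZNF238 with 9.89% of the ZNF reads, so the sets are not separate families.

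**Figure D2:**
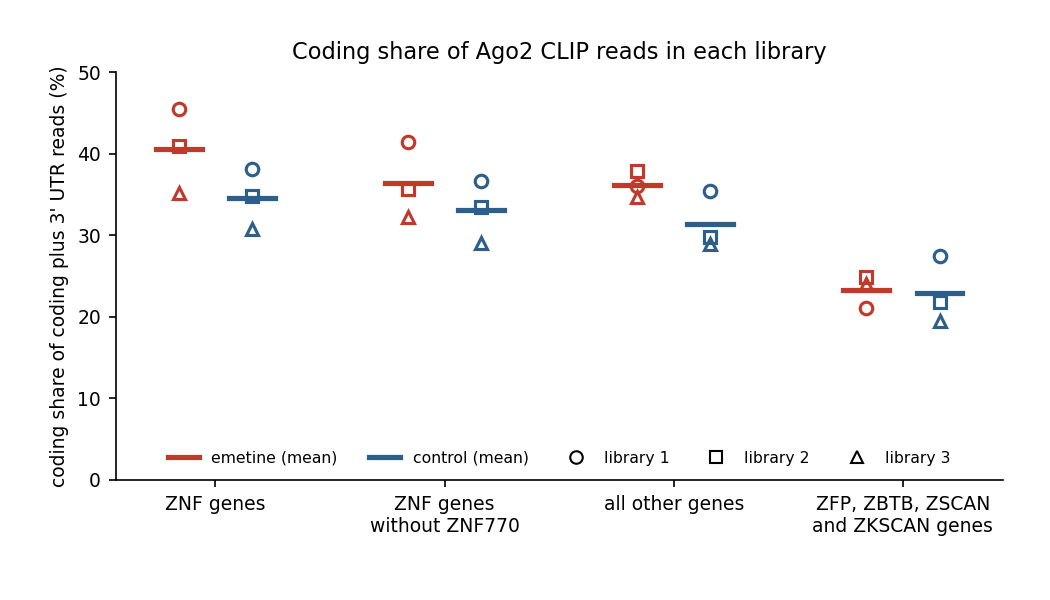
Coding share of coding plus 3' UTR reads (y axis, percent) in each CLIP library, for ZNF genes, ZNF genes without ZNF770, all other genes and the ZFP, ZBTB, ZSCAN and ZKSCAN genes; symbols are libraries and lines are means, with emetine left of control. The ZNF symbols run from 35.1 to 45.4% with emetine and from 30.7 to 38.1% in the control, and the groups overlap.

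Differences between treatments for single peaks, genes and regions were fitted with limma on log2 of (reads × the value of 1 read + 1), where the value of 1 read corrects for library depth. The log2 differences below are emetine minus control on that scale, with the standard error of limma. They are differences of mean logarithms, so 1 library can decide them, and they can differ in sign from the ratio of read totals, which is given with its 95% exact binomial interval. The intervals and floors allow for counting error alone, as reads amplified from the same molecule are not independent. At a Benjamini-Hochberg adjusted p under 0.05 over all peaks, genes or sums in the table, limma called 0 of 449 ZNF peaks, 0 of 138 gene sums and 0 of 195 sums by gene and region, and limma-voom also called 0 at each level. The share called over the whole table was also 0% at each level. The smallest adjusted p of a ZNF feature was 0.784 for peaks, 0.800 for genes and 0.757 for sums by region.

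At an unadjusted p under 0.05, limma had 1 ZNF peak higher and 1 lower with emetine, where 0.764% and 0.298% of all peaks were. The higher one was a 3' UTR peak of ZNF652 (chr17:47371409-47371442, hg19, minus strand), with 1, 7 and 9 reads with emetine against 0, 0 and 0 in the control. Its log2 difference was 4.16 ± 2.08 (SE). The lower one was a 3' UTR peak of ZNF224, a KRAB-type repressor (chr19:44612435-44612459, plus strand), with 0, 0 and 0 reads with emetine against 4, 18 and 12 in the control. Its log2 difference was -5.22 ± 2.00 (SE). Where a treatment had no read, the fitted difference depends on the constant added and is no bound. Among gene sums ZNF224 alone passed the unadjusted threshold, on the lower side, where 0.759% of all genes were, and none did on the higher side, where 1.08% were. Among sums by region, 3 were lower with emetine, where 0.724% of all sums were, and none was higher, where 1.12% were. The 3 were the coding sums of ZNF498 and ZNF652 and the 3' UTR sum of ZNF224. Of the 3, ZNF498 and ZNF224 had no read in any emetine library, and ZNF652 had reads in 1 of them.

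All emetine libraries lay above all control libraries for 12 of 449 ZNF peaks, where 2.55% of all peaks did so, and below them for 6, where 1.43% did. Of the 12, 5 were in coding sequence (ZNF273, ZNF451, ZNF703, ZNF770 and ZNF791), 6 in 3' UTRs and 1 in a 5' UTR. The 6 lower ones were all in 3' UTRs, in ZNF224, ZNF428, ZNF498, ZNF703 and, with 2 peaks, ZNF805. Over the whole table the higher ones were 245 of 7472 coding peaks and 284 of 12954 3' UTR peaks. The lower ones there were 65 of the coding and 238 of the 3' UTR peaks, so most lower peaks lay in 3' UTRs in the whole table too.

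ZNF770, which has 10 finger patterns, held the 2 coding peaks with the most reads of any ZNF gene. The peak at chr15:35275359-35275383 (hg19, minus strand) had 13, 94 and 38 reads in emetine libraries 1 to 3 against 7, 24 and 33 in control libraries 1 to 3. The peak at chr15:35275522-35275558 had 11, 63 and 21 reads with emetine against 2, 23 and 5 in the control. After correction for depth the emetine libraries lay above the control libraries for the first of these and overlapped them for the second. The log2 differences were 1.16 ± 1.23 and 2.08 ± 1.42 (SE), both with a limma adjusted p of 0.784. The ratio of read totals was 2.52 (95% exact interval 1.86 to 3.43) for the first and 3.52 (2.31 to 5.50) for the second. Summed over both, ZNF770 coding reads numbered 24, 157 and 59 with emetine against 9, 47 and 38 in the control, a log2 difference of 1.40 ± 0.83 (SE, limma adjusted p = 0.757). The RNA of ZNF770 numbered 567 reads with emetine against 232 in the control, and its log2 ratio was -0.06 (95% exact interval -0.28 to 0.17).

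Apart from ZNF770, the leading coding sums did not share a direction. ZNF238 had 17, 51 and 29 coding reads with emetine against 19, 102 and 61 in the control, a log2 difference of -0.59 ± 0.84 (SE). It was lower with emetine in its mean, within treatments that overlapped. ZNF703 had 34, 47 and 74 with emetine against 35, 33 and 36 in the control, a log2 difference of 0.65 ± 0.81. For ZNF652 the reads were 0, 16 and 0 with emetine against 2, 35 and 45 in the control, a log2 difference of -3.97 ± 1.90. The libraries of ZNF703 overlapped too, and for ZNF652 the only emetine library with reads lay inside the control range. For ZNF498, now named ZSCAN25, coding reads were 0, 0 and 0 with emetine against 2, 23 and 47 in the control. Set at a floor of 3 reads for the emetine libraries together, its coding signal was at least 21.6-fold lower with emetine (fitted log2 difference -5.66, limma adjusted p = 0.757). The 3' UTR of the same gene had 1, 33 and 6 reads with emetine against 2, 4 and 24 in the control, a log2 difference of 0.17 ± 1.66. Its 3' UTR reads were spread over both treatments. ZNF292, a large nuclear factor mutated in several tumours, had 1, 10 and 16 coding reads with emetine against 0, 43 and 12 in the control, a log2 difference of 0.64 ± 1.77 although the ratio of totals was 0.545 (0.331 to 0.880). ZNF317 had 0, 6 and 29 with emetine against 1, 45 and 1 in the control, and ZNF644, a partner of the histone methyltransferases G9a and GLP, had 2, 19 and 5 with emetine against 0, 27 and 12 in the control. Their log2 differences were -0.45 ± 1.93 and 0.94 ± 1.79. In these last 3 genes most of the reads of a treatment came from 1 or 2 libraries and the treatments overlapped. The limma adjusted p of the 8 leading coding sums lay between 0.757 and 0.974.

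None of the leading 3' UTR sums separated the treatments. ZNF238 had 30, 54 and 117 reads with emetine against 23, 149 and 199 in the control, a log2 difference of -0.47 ± 0.63 (SE). ZNF264 had 12, 86 and 77 with emetine against 17, 57 and 50 in the control, a log2 difference of 0.39 ± 0.83. Its neighbour ZNF805 had 8, 56 and 50 with emetine against 15, 120 and 34 in the control, a log2 difference of -0.33 ± 0.89. ZNF264 and ZNF805 are listed with the same protein length of 627 residues and the same 13 fingers, and how reads that match both were counted is not given in the sources used here, so their separate values are uncertain. The same overlap of libraries was seen in ZNF703 and ZNF652, the genes with many peaks. ZNF703 had 11, 83 and 39 with emetine against 27, 63 and 29 in the control, a log2 difference of -0.008 ± 0.88. ZNF652 had 11, 23 and 53 with emetine against 14, 70 and 74 in the control, a log2 difference of -0.66 ± 0.91. The lowest difference of these sums was in ZNF451, a ligase for SUMO chains, whose largest emetine library still lay inside the control range. ZNF451 had 1, 46 and 17 with emetine against 9, 104 and 42 in the control, with a log2 difference of -1.68 ± 1.14 and a ratio of totals of 0.459 (0.337 to 0.618). ZNF217, an oncogene of the chromosome 20 amplicon in breast cancer, had 1, 41 and 24 with emetine against 0, 47 and 42 in the control, a log2 difference of 0.87 ± 1.52. That difference turned on the libraries with the fewest reads, 1 read against none. ZNF678 had 4, 57 and 5 with emetine against 5, 44 and 34 in the control, a log2 difference of -0.73 ± 1.24. The limma adjusted p of these 8 sums lay between 0.757 and 0.999.

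**Figure D3:**
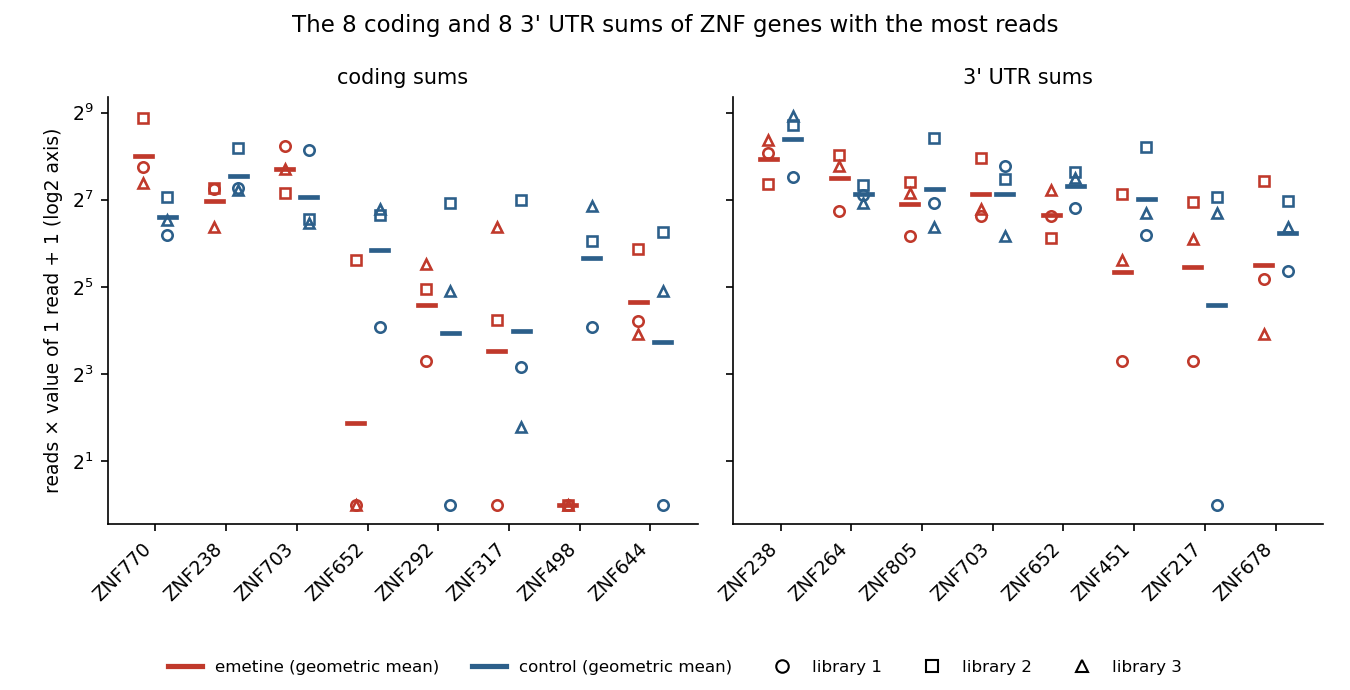
Depth-corrected reads (reads × the value of 1 read, plus 1, on a log2 axis) of the 8 coding and 8 3' UTR sums with the most reads, in each CLIP library; symbols are libraries and lines are geometric means, with emetine left of control. In the coding panel the 3 emetine symbols of ZNF770 lie above its control symbols and the 3 of ZNF498 lie at 0 reads, while the 3' UTR panel shows treatments that overlap.

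The peaks in 3' UTRs with the most reads were those of ZNF703, with 8, 48 and 24 reads with emetine against 15, 48 and 20 in the control, and of ZNF800, a repressor of enteroendocrine genes, with 10, 25 and 40 with emetine against 0, 37 and 32 in the control. The next 4 were all in ZNF238. The strongest of these (chr1:244220409-244220464, plus strand) had 2, 0 and 20 reads with emetine against 0, 44 and 34 in the control. Its ratio of totals was 0.313 (0.186 to 0.508), and it overlapped a peak at chr1:244220441-244220466, so the same reads may be counted in both. Among coding peaks the next after ZNF770 were in ZNF317, ZNF238, ZNF14 and ZNF498. The ZNF14 peak (chr19:19822893-19822918, minus strand) had 0, 10 and 4 reads with emetine against 0, 22 and 0 in the control.

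Among peaks with at least 20 reads, the largest log2 differences in coding sequence were 3.68 ± 2.03 for ZNF273 (1, 16 and 5 reads with emetine against 0, 0 and 1 in the control) and 3.68 ± 1.98 for ZNF451 (2, 8 and 9 with emetine against 0, 0 and 2 in the control). They were followed by 2.98 ± 2.13 for ZNF281, a factor of stem cell pluripotency (0, 17 and 3 with emetine against none in the control), and 2.78 ± 1.87 for ZNF703 (4, 8 and 7 with emetine against 2, 0 and 1 in the control). The most negative were -3.68 ± 2.11 for ZNF692 (no emetine read and 4, 22 and 0 in the control) and -3.48 ± 2.13 for ZNF498 (no emetine read and 2, 0 and 33 in the control), ahead of 2 overlapping peaks of ZNF238 at -2.14 ± 2.02 and -2.07 ± 2.01. In 3' UTRs the largest were 3.47 ± 2.13 for ZNF721, 3.33 ± 1.95 for ZNF264, 2.71 ± 2.09 for ZNF680 and 2.60 ± 2.11 for ZNF805. The ZNF721 peak had 0, 14 and 11 reads with emetine against none in the control, at least 9.26-fold higher by the floor. After ZNF224, the most negative were ZNF652 at -3.22 ± 2.13, another ZNF805 peak at -3.21 ± 1.87 (1, 0 and 1 reads with emetine against 3, 23 and 7 in the control) and ZNF703 at -2.94 ± 1.89. Every one of these peaks had a limma adjusted p of 0.784.

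Of the gene sums with at least 50 reads, the largest log2 differences were 2.96 ± 1.98 (SE) for ZNF609, 2.40 ± 1.46 for ZNF680, 2.12 ± 2.16 for ZNF445, 2.03 ± 1.32 for ZNF800, 1.76 ± 2.23 for ZNF12 and 1.73 ± 2.31 for ZNF267. ZNF680 had 3, 28 and 78 reads with emetine against 1, 2 and 24 in the control, a ratio of totals of 4.49 (2.92 to 7.11). ZNF445, a KRAB protein that protects imprinted genes, had 4, 9 and 3 with emetine against 0, 41 and 0 in the control, so its ratio of totals of 0.434 (0.227 to 0.790) goes the other way from its log2 difference. The same opposition held for ZNF800, with a ratio of 0.960 (0.697 to 1.32). The most negative were -5.62 ± 2.36 for ZNF224, -3.67 ± 2.01 for ZNF614, -2.61 ± 1.83 for ZNF24, -1.55 ± 1.35 for ZNF498, -1.42 ± 1.69 for ZNF460 and -1.39 ± 1.38 for ZNF768. ZNF224 had no read with emetine against 4, 42 and 12 in the control. ZNF24, a SCAN-domain repressor, had 0, 2 and 19 with emetine against 3, 44 and 11 in the control. Adjusted p-values of limma for these 12 genes lay between 0.800 and 0.846. Over all 138 gene sums, 80 had a log2 difference above 0 and 58 below, with a median of 0.28, where 51.1% of all genes lay above 0 with a median of 0.04.

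Of all 449 ZNF peaks, 222 had a log2 difference above 0, where 50.2% of all peaks did. Coding and 3' UTR peaks of ZNF genes had medians on opposite sides of 0, as all peaks of these regions did. Among ZNF peaks with reads in 3 libraries or more both medians lay above 0, at 0.60 for coding and 0.20 for 3' UTR peaks. The medians of all peaks under that filter are not given here, so the filtered values have no background beside them. Of the 151 coding peaks, 81 had a log2 difference above 0 and 70 below, with a median of 0.32, where 54.6% of all coding peaks lay above 0 with a median of 0.29. Of the 258 3' UTR peaks, 117 lay above 0 and 141 below, with a median of -0.34, where 47.2% of all 3' UTR peaks lay above 0 with a median of -0.17. With each peak's log2 ratio of read totals in its place, and totals under 3 reads set to 3, the medians were -0.04 for ZNF coding peaks against 0.47 for all coding peaks, and -0.47 for ZNF 3' UTR peaks against -0.38 for all 3' UTR peaks. The ZNF coding median therefore changed sign with the measure, while that of all coding peaks did not. Of the 151 coding peaks, 32 had no emetine read and 32 no control read. By read totals the ZNF coding ratio was 1.10 (95% exact interval 1.03 to 1.19), against 1.23 for all coding peaks, and it was 0.982 (0.907 to 1.06) without ZNF770. The ZNF 3' UTR ratio was 0.871 (0.823 to 0.922), against 0.920 for all 3' UTR peaks. In the authors' deposited table, whose ratios also subtract the RNA of the gene, the median log2 ratio was -0.20 for ZNF coding and -0.60 for ZNF 3' UTR peaks, against 0.30 for all coding and -0.17 for all 3' UTR peaks.

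The difference between regions was not tested within single genes, and its errors were wide. In 21 ZNF genes with at least 20 reads in each region, the coding log2 difference was above the 3' UTR one in 14 (66.7%), with a median gap of 0.65, where it was above in 56.3% of all 940 such genes, with a median gap of 0.39. With peaks of identical read numbers counted once, it was above in 13 of 18 ZNF genes, with a median gap of 0.50. Of all 885 such genes it was then above in 56.3%, with a median gap of 0.36. The gap was largest in ZNF451, where the coding sum stood at 3.68 ± 2.23 and the 3' UTR sum at -1.68 ± 1.14. ZNF678 followed, with 2, 19 and 3 coding reads with emetine against 0, 0 and 2 in the control (3.59 ± 2.24), beside -0.73 for its 3' UTR. ZNF180, with 11 miR-181 matches, had 0, 16 and 35 coding reads with emetine against 2, 0 and 5 in the control (1.48 ± 2.06), and 0, 29 and 0 3' UTR reads with emetine against 1, 10 and 8 in the control (-1.98 ± 2.11). In ZNF224 neither region had a read with emetine, and its coding sum of -2.03 ± 2.05 rested on 1 control library, with 12 reads in each of 2 peaks of identical read numbers, so the same 12 reads may be counted in both. The reverse order was seen in ZNF498 and ZNF652 above, and in ZNF609 and ZNF800, whose coding sums of -1.33 ± 2.19 and -0.82 ± 2.26 each rested on 1 control library, beside 3.28 ± 1.98 and 2.18 ± 1.38 in their 3' UTRs. The other genes with repeated miR-181 matches shown above had few coding reads, ZNF12 0, 0 and 10 with emetine against 0, 0 and 12 in the control, and ZNF484 0, 17 and 0 with emetine against none in the control.

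Grouped by protein features, the median log2 difference was higher for genes that matched the KRAB pattern, in both regions. The rest is not a class without KRAB boxes. It includes ZNF224 and ZNF445, described above as KRAB proteins, which the pattern did not match. The 39 coding peaks of genes with the pattern, called KRAB genes here, had 25 above 0 and a median of 1.06. The 112 coding peaks of the rest had 56 above 0 and a median of -0.08. The ratio of read totals was 1.63 (1.39 to 1.90) for KRAB coding peaks and 0.980 (0.899 to 1.07) for the rest. In 3' UTRs, 50 of 90 KRAB peaks lay above 0 with a median of 0.38, and 67 of 168 of the rest with a median of -0.66. By finger number the coding medians were 0.58 for 0 to 2 fingers, -0.68 for 3 to 9 and 0.60 for 10 or more. The 3' UTR medians were -0.98, -0.47 and 0.05 in the same order. Finger numbers hold only for the transcript taken for a gene. ZNF451, with 0 finger patterns in a transcript of 559 residues, supplied 14 of the 42 3' UTR peaks of the class with 0 to 2 fingers. Coding peaks on chromosome 19 had a median of 0.63, and those on other chromosomes 0.03. Coding peaks of genes with a miR-181 match in the coding sequence numbered 76, with a median of 0.61, and those of genes without one 75, with a median of -0.17. With ratios of read totals and the same floor, the medians were 1.89 for KRAB coding peaks and -0.38 for the rest, and 0.24 and -0.91 in 3' UTRs. In the authors' deposited table, which subtracts the RNA of the gene, the KRAB medians were 0.38 in coding sequence and 0.13 in 3' UTRs, and those of the rest -0.28 and -0.67. The coding medians above 0 of 3 other classes turned in the authors' deposited table, to -0.09 for genes with a miR-181 match, -0.09 for chromosome 19 and -0.18 for 10 or more fingers. There the coding median was -0.32 for genes without a match and -0.27 for other chromosomes, and it was 0.04 for 0 to 2 fingers and -0.70 for 3 to 9. The RNA ratios of KRAB genes were also higher than those of the rest, as given below, and the part of RNA in these medians was not tested beyond that subtraction. These classes overlap in their members, no test was made between them, and single peaks had a median standard error of 2.04.

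**Figure D4:**
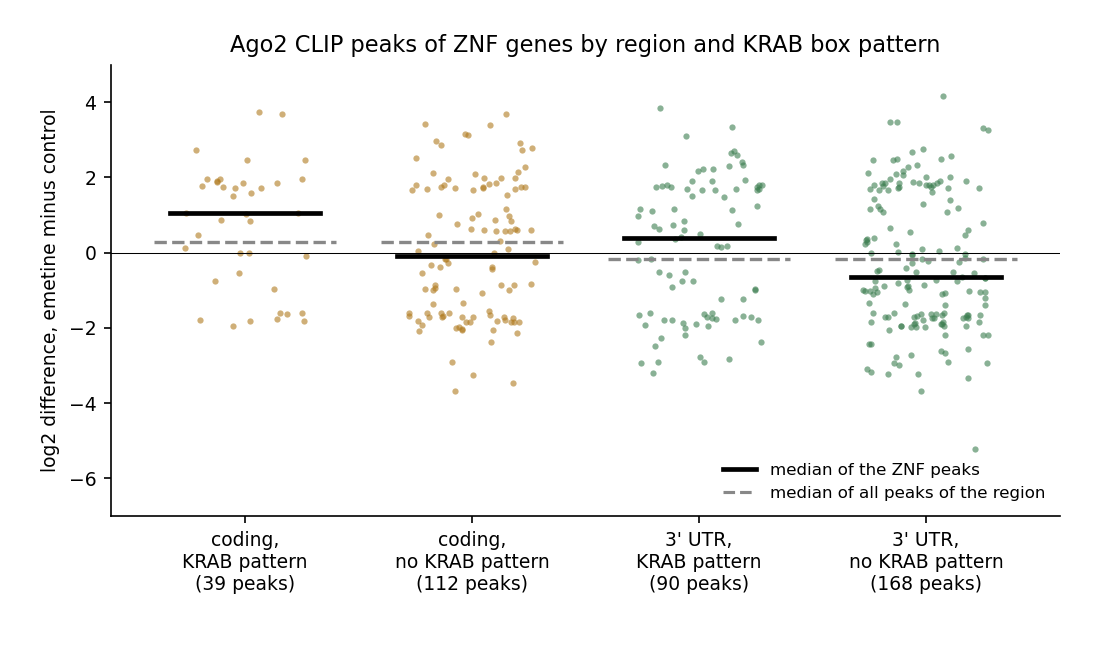
Log2 difference, emetine minus control (y axis), of each ZNF coding or 3' UTR peak, split by a match to the KRAB pattern; points are peaks, black lines their medians and dashed lines the medians of all peaks of the region in the table. The KRAB medians are 1.06 and 0.38 and those of the rest -0.08 and -0.66, within points that spread over several log2 units.

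In RNA-seq, with 1 library per treatment and so no test, ZNF transcripts as a group had higher ratios with emetine than other transcripts. At least 50 RNA reads were found for 131 ZNF genes, and in 95 of them (72.5%) the log2 ratio of emetine to control lay above 0, where 50.9% of all 5809 genes did. The median was 0.18, against 0.01 for all genes. The 95% exact interval lay above 0 for 45 ZNF genes (34.4%), where it did for 13.8% of all genes, and below 0 for 1 (0.763%), ZNF704, where it did for 13.8%. The median ZNF gene had 315 RNA reads with emetine against 106 in the control. These intervals compare 2 libraries, not the conditions. In bulk RNA, fewer cells with a transcript and less of it per cell cannot be told apart.

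The highest log2 RNA ratio belonged to ZNF853, at 2.21 (95% exact interval 0.94 to 3.91), with 60 reads with emetine against 5 in the control. ZNF14, a KRAB gene with 17 fingers, followed at 1.33 (0.75 to 1.96), with 179 reads with emetine against 28 in the control. ZNF689 stood at 1.05 (0.30 to 1.90), with 90 reads with emetine against 17 in the control. ZNF12, the gene with the most miR-181 matches (18), stood at 1.05 (0.76 to 1.35), with 599 reads with emetine against 114 in the control. ZNF12 thus had the most RNA reads of the genes with a log2 ratio above 1. ZNF583 stood at 0.91 (0.40 to 1.45), with 186 reads with emetine against 39 in the control. The first 4 exceeded a log2 ratio of 1, as 0.844% of all genes did. No ZNF gene lay below -1, as 0.792% of all genes did. The lowest were ZNF428 at -0.55, ZNF580 at -0.45, ZNF333 at -0.45, ZNF395 at -0.38 and ZNF704 at -0.31. Of the 13 genes with leading CLIP sums, ZNF770, ZNF652, ZNF498, ZNF805, ZNF451, ZNF217 and ZNF678 had log2 RNA ratios between -0.07 and -0.01. The other 6 lay above 0, with ZNF703 at 0.54 (-0.08 to 1.21), ZNF264 at 0.33, ZNF317 at 0.29, ZNF292 at 0.24, ZNF238 at 0.17 and ZNF644 at 0.05. ZNF224, with no CLIP read after emetine, had 0.33, and ZNF180 had 0.80 (0.49 to 1.13).

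The RNA ratios were higher with more fingers. The median was 0.29 in 67 genes with 10 or more fingers, of which 55 lay above 0. It was 0.12 in 49 genes with 3 to 9 fingers, of which 33 did, and 0.01 in 14 genes with 0 to 2 fingers, of which 7 did. Genes with the KRAB pattern had a median of 0.30 (49 of 58 above 0) and the rest 0.12 (46 of 72). Genes on chromosome 19 had a median of 0.33 (40 of 49 above 0) and those on other chromosomes 0.13 (55 of 82). Many genes fall in all of these classes, so they cannot be read as separate observations. ZFP, ZBTB, ZSCAN and ZKSCAN genes, taken by symbol and with the finger pattern in 37 of 38, had a median of 0.08 (20 of 34 above 0). The median RNA reads of the classes with fewest and most fingers were alike, 327 with emetine against 121 in the control for 0 to 2 fingers, and 353 with emetine against 107 in the control for 10 or more.

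**Figure D5:**
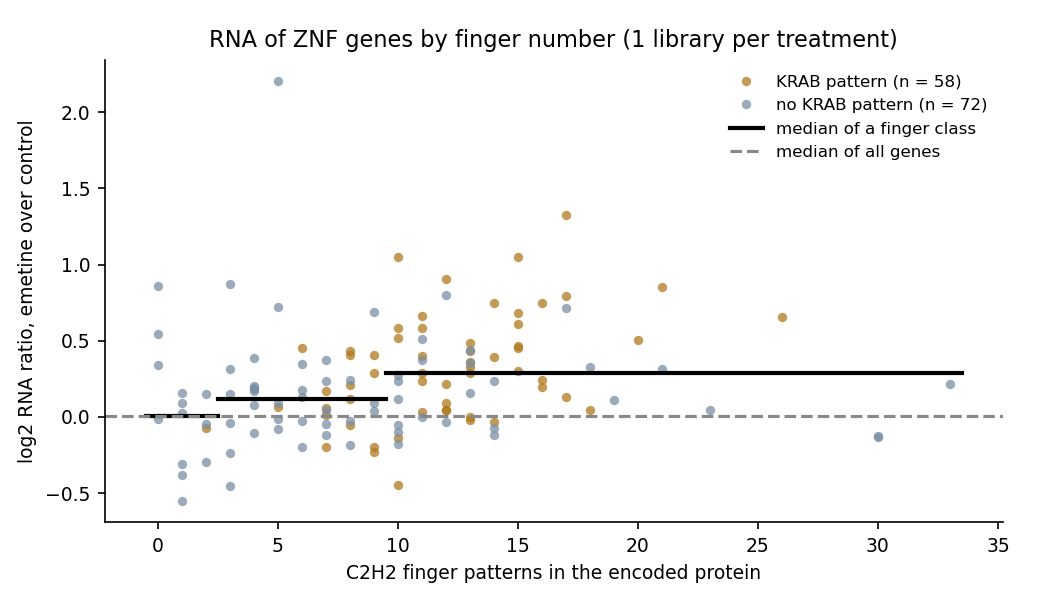
Log2 RNA ratio of emetine over control (y axis) against the number of C2H2 finger patterns in the encoded protein (x axis), for ZNF genes with at least 50 RNA reads; each point is a gene, black lines are medians of the classes with 0 to 2, 3 to 9 and 10 or more fingers, and the dashed line is the median of all genes. The class medians are 0.01, 0.12 and 0.29, from fewest to most fingers.

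Related genes gave a point of reference. The ZFP, ZBTB, ZSCAN and ZKSCAN genes had 172 peaks in 38 genes with a median log2 difference of 0.07, and their gene sums had 18 above and 20 below 0. By reads they were led by ZBTB7A, with 41, 198 and 140 with emetine against 57, 160 and 199 in the control, followed by ZBTB4, ZBTB47 and ZFP91. ZFP91, a ubiquitin ligase, had 8, 106 and 40 with emetine against 4, 51 and 18 in the control, a ratio of totals of 2.34 (1.76 to 3.14) and a log2 difference of 1.20 (limma adjusted p = 0.800). The list of KRAB corepressors and their partners held 22 symbols, with the same gene under both FAM208A and TASOR. Of these symbols 15 had peaks, 64 in all, with 25 log2 differences above 0 and 39 below and a median of -0.20. Of these, CBX5, a heterochromatin protein, had 16, 61 and 24 reads with emetine against 25, 56 and 87 in the control. TRIM28 had 76, 1 and 36 with emetine against 35, 16 and 58 in the control. FAM208A, a subunit of the HUSH silencing complex, had 3, 32 and 19 with emetine against 0, 56 and 12 in the control, and DNMT1, the maintenance DNA methyltransferase, had 3, 1 and 0 with emetine against 0, 15 and 43 in the control. None of these sums passed an adjusted p of 0.05 in limma, and their RNA had a median log2 ratio of -0.04 (6 of 15 above 0).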

How the data were processed

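Ago2 CLIP and RNA-seq of 293S cells with and without emetine gave 8 libraries. The authors deposited, per the file headers, a normalised average and an emetine to no-emetine ratio for every peak, as log values that fit the natural log, beside its position, region, symbol and transcript. Build hg19 and the tools Bowtie 0.12.8, TopHat and DESeq are named, without roles, in the submitters' processing notes. The peak caller is not given in the sources used here, nor is the start convention of the coordinates.

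Adding or subtracting 0.5 times the ratio gives 1 value per treatment. It equals the mean of ln(1 + reads × factor) of the CLIP libraries less the same term of the RNA library. Whole reads were recovered on this basis for 22499 of 22506 peaks, within 2e-13, all ZNF peaks included. Among values shifted as a check, 2 of 3148 (emetine) and 1 of 3148 (control) were matched by chance. With emetine 1 read was worth 8.86, 3.00 and 2.81 in libraries 1 to 3, against 8.00, 2.82 and 2.43 in control libraries, and 2.51 in the RNA library against 6.37 in the control. Libraries are numbered by that value.

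The design had foreseen values per antibody. The deposited unit is a log, and no antibody could be tied to a recovered library, so the fit was limma 3.58.1 (R 4.3.3) with a trend, treatment alone (same-numbered libraries as a block in an added alternative) and Benjamini-Hochberg adjustment over the whole table, for peaks and for sums per gene and per gene and region. No count model was run. Shares were compared by exact permutation (scipy 1.17.1). Scripts were tested on simulated data. A treatment with 0 reads was set at 3 reads over its libraries. Coding sequences and 3' UTRs came from GENCODE 29, taking the longest coding sequence among the principal isoforms of a gene. The members and lists were chosen with earlier results of these data known.

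Named were the 8 coding and 8 3' UTR sums and the 6 coding and 6 3' UTR peaks with the most reads, the 6 largest and 6 most negative gene sums with at least 50 reads, and the 4 and 4 most extreme peaks with at least 20 reads in each region. To these were added the 4 and 4 most extreme gaps between regions, the 5 and 5 most extreme RNA ratios with at least 50 reads, the 5 genes with the most peaks and coding peaks, and the 4 members of each list with the most reads. The stretches of sequence, the peaks at an unadjusted p under 0.05 and those with separate treatments were picked after their values were seen.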

Additional observations from a re-analysis of the deposited data

How the results depend on the processing

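The count of ZNF calls stayed at 0 under all 45 alternatives for peaks, genes and sums by region (other constants and scaling, limma-voom, identical peaks once, reads in at least 3 libraries, each library left out, library 1 of each treatment left out, lettered symbols included, same-numbered libraries as a block). The smallest adjusted p among them was 0.272, without library 1 of each treatment. Of 838 alternative values for 61 medians, gene sums, region sums and peaks, 795 kept their direction, 7 were at 0 and 36 turned, and the cause was not tested. The labels give each antibody once per treatment, but no label ties a recovered library to one. A pairing by number was added after seeing the data. Deviations from the treatment mean correlated at 0.146, 0.042 and 0.040 over peaks in same-numbered libraries, best with the own number in all 3. Numbers follow the value of 1 read, so same-numbered libraries also share their rank in that value. The part of depth in these correlations was not tested. Over gene sums, control library 3 correlated better with emetine library 2 (0.048) than with emetine library 3 (0.021). Over sums by region the same held (0.046 against 0.029). The pairing is a hint from the data and not the design. With number as a replicate block, 0 ZNF features were called (smallest adjusted p 0.816 for peaks, 0.748 for genes and 0.762 for sums by region). At an unadjusted limma p under 0.05 it had 11 ZNF peaks, 2 genes and 7 sums, where the unpaired fit had 2, 1 and 3. The share of all peaks, genes and sums under the block fit is not given here, so these counts cannot be read as a result about ZNF genes. The ZNF share of all reads was lower with emetine in 3 of 3 pairs, with a mean difference of -0.076 points (exact sign-flip permutation p = 0.25).

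The excess of the ZNF coding share over other genes, 3.77 points, was 2.64 to 4.42 points with each library left out in turn and 2.62 points without library 1 of each treatment, where fewer libraries cannot reach p under 0.05. It was 0.970 points without ZNF770, and it turned to -0.802 points as a mean over genes and -0.926 points with lettered symbols included. The difference in the ZNF share of all reads, -0.076 points, lay between -0.306 and 0.194 points with each library left out, and was 0.053 points for peaks seen in 3 libraries or more and 0.376 points with ZNF367 and ZNF711 added.

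In peaks seen in 3 libraries or more, the ZNF 3' UTR median was 0.20, and the log2 differences were 0.36 for the ZNF460 sum, 0.67 for the ZNF498 sum and 0.31 for the ZNF652 3' UTR sum. With limma-voom they were -0.13 for ZNF292 coding, 0.46 for ZNF317 coding and 0.32 for ZNF703 3' UTR sums. Without library 1 of each treatment they were -0.27 for the ZNF800 sum, -0.35 for ZNF217 3' UTR, -0.69 for ZNF292 coding, 0.92 for ZNF317 coding, -0.71 for ZNF644 coding and 0.56 for ZNF703 3' UTR sums.

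With each library left out in turn, the log2 ranges that crossed 0 were -0.029 to 0.73 (ZNF coding median), -0.21 to 1.09 (gene median), -0.012 to 3.82 (ZNF267), -3.56 to 0.94 (ZNF768) and -0.24 to 3.42 (ZNF800) for gene sums. For coding sums they were -1.33 to 2.14 (ZNF292), -1.86 to 1.32 (ZNF317), -2.32 to 0.67 (ZNF609), -0.93 to 2.21 (ZNF644) and -1.92 to 1.10 (ZNF800). For 3' UTR sums they were -1.42 to 2.11 (ZNF217), -0.80 to 0.87 (ZNF498), -1.69 to 0.071 (ZNF678), -0.50 to 0.31 (ZNF703) and -0.76 to 0.25 (ZNF805). Single peaks had a median of 15 reads, which limits what their differences can show.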
